A study of Mus musculus with 2 samples.

Results

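The genes of NK cell receptors described here are 9 of the 32285 features measured by single-cell RNA sequencing in J558 allografts, chosen by symbol from those listed in both libraries. They comprised 5 genes of activating receptors (Ncr1, Klrk1, Klrb1c, Klra4 and Klra8), 2 genes of partner chains (Klrd1 and Klre1) and 2 genes of inhibitory receptors (Klrc1 and Klra7). J558 is a BALB/c plasmacytoma line, and female BALB/c mice carried it as a subcutaneous tumor. For 6 days the mice received oral TAK-931, an inhibitor of the replication kinase CDC7, at 60 mg/kg once daily or the vehicle, 0.5% methylcellulose. On day 6 tumors were dissociated for droplet 3′ chemistry with 1 library per treatment, so no spread between animals could be measured and no test between treatments was made. All intervals below are exact 95% intervals of counting error only, and the treatment cannot be told apart from the tumor and the preparation of its library.

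NK cells kill without rearranged antigen receptors, by weighing signals of germline-encoded activating and inhibitory receptors. NKp46 (Ncr1) and NKG2D (Klrk1) trigger killing, NKG2A (Klrc1) binds a nonclassical MHC class I molecule as a dimer with CD94 (Klrd1) and inhibits, and the Ly49 family (Klra genes) binds classical MHC class I with both activating and inhibitory members. Activating chains lack a signalling tail and borrow adaptors, DAP12 (Tyrobp) for activating Ly49 receptors, DAP10 (Hcst) for NKG2D and CD3 zeta (Cd247) or the Fc receptor gamma chain (Fcer1g) for NKp46, whereas inhibitory chains carry a tyrosine motif, the ITIM, near the start of the protein. Several of these genes, among them NKG2D, CD94 and NKG2A, are also used by activated CD8 T cells. The Ly49 cluster differs in gene content between mouse strains: BALB/c mice are known to lack the genes for Ly49H (Klra8) and Ly49D (Klra4) of the C57BL/6 reference.

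Of the genes, 8 lie in the NK gene complex of chromosome 6, and Ncr1 lies on chromosome 7 (4337724 to 4345164, plus strand; GRCm38, the assembly also called mm10). The cluster runs from Klrb1c (128778485 to 128789215) through Klre1 (129577905 to 129585827), Klrd1 (129591782 to 129598775), Klrk1 (129610323 to 129623864) and Klrc1 (129666015 to 129678973) to the Ly49 genes Klra4 (130043731 to 130067271), Klra8 (130115226 to 130129898) and Klra7 (130218605 to 130233322). Klrd1 and Klre1 are on the plus strand and the other 6 of chromosome 6 on the minus strand. Because the chemistry reads the 3′ end, the last 500 bases of each transcript set how well a gene can be told from its relatives. Of the 31-base words in that stretch, 68.7% of Klrc1 were also in another gene, all of them in Klrc2, which encodes the activating NKG2C. The share was 46.6% for Klra7 (with Klra13-ps), 44.5% for Klra8 (most with Klra9) and 15.1% for Klra4 (most with Klra1), and 0 for Ncr1, Klrk1, Klrb1c, Klrd1 and Klre1. Klrb1c overlaps the gene model Gm44511 on the same strand, so its reads may not all be its own. The Klrc1 and Klra values are likewise uncertain. Reads of the shared stretches may have been lost or counted for a relative, which was not tested. The reads were aligned to the C57BL/6 sequence although the mice were BALB/c.

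The stretches holding the ITIM of the inhibitory genes are shown with those of the activating Ly49 genes, since these relatives differ there. The motif searched was isoleucine, valine, leucine or serine, any residue, tyrosine, any 2 residues, and leucine or valine, in the first 100 codons of the sense strand of the GENCODE coding sequences. The tyrosine codon, or the codon at its place, is in capitals.
Klrc1, codons 6 to 11: gtcaccTATgcagaactg
Klra7, codons 6 to 11: gtcactTACtcaactgtg
Klra4, the same stretch: gacactTTCtcagctgtg
Klra8, the same stretch: gtcactTTCccaactatg
Both inhibitory genes held 1 match at the same codons. Counted from 1 at the A of the start codon, Klra4 differed from Klra7 by T17A, A23T and A28G, and Klra8 by A23T, T25C and G31A, so that neither activating Ly49 gene has a tyrosine codon at that place. Klrb1c held 1 match farther in, at codons 53 to 58, and Ncr1, Klrk1, Klrd1, Klre1, Klra4 and Klra8 held none. The motif is common: 10.1% of 21583 mouse coding sequences had it in that window.

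Vehicle and TAK-931 libraries numbered 4565 and 6558 barcodes, with totals of 144767193 and 77369283 unique molecular identifiers (UMIs, which count transcripts). Those that passed the limits of over 500 genes and less than 15% mitochondrial UMIs numbered 4163 and 4635. NK cells were gated by at least 3 of 8 markers (Nkg7, Gzma, Prf1, Il2rb, Eomes, Txk, Ctsw, Xcl1) with an adaptor UMI (Tyrobp or Fcer1g) and no UMI of CD3, Trac or Cd8b1. CD8 T cells were gated by at least 2 of 4 CD3 and Trac genes with Cd8a or Cd8b1 and no Cd4. Both gates left out barcodes with 3 or more of 7 myeloid markers, and neither used a receptor gene described here. The NK gate held 27 vehicle and 145 TAK-931 cells, at medians of 3720 and 4345 UMIs per cell. The CD8 T gate held 20 and 631 cells, at medians of 5140.5 and 10648. Gzmb, a cytotoxic granule gene that the gate did not use, was found in 23 of 27 and 129 of 145 NK cells. It was also in 15 of 20 and 426 of 631 CD8 T cells, so it does not part the gates. Trbc2, a T cell receptor gene not used either, was in 9 of 27 and 44 of 145 NK cells. UMIs of the 7 myeloid markers, limited by the gates themselves, summed to 29.6 CPM (counts scaled to a gate total of 1000000; 3 genes with a UMI, Csf1r, Adgre1, C1qc and Fcgr1 at 0) in vehicle and 110 CPM (all 7 genes) in TAK-931 NK cells, and to 0 and 68.4 CPM in CD8 T cells. The macrophage gene Lyz2 was in 0 of 27 vehicle and 63 of 145 TAK-931 NK cells. Of 10 markers of B, dendritic, mast, basophil and innate lymphoid cells, Siglech, Mcpt8 and Ms4a2 were at 0 in NK cells of both libraries, and the list summed to 281 and 317 CPM there. Most of it was Rora, at 148 and 137 CPM, and Gata3, at 81.4 and 77.0 CPM. Bst2 was at 29.6 and 71.8 CPM, and Ms4a1, a B cell gene, had 0 and 14 UMIs. The libraries shared 8 barcodes, none of them in either gate.

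Among the activating receptors in NK cells, Klrk1 and Ncr1 had the highest levels, with overlapping intervals in vehicle and Klrk1 above Ncr1 in TAK-931 cells. UMIs were summed over a gate and given as CPM. Levels of different genes are set side by side since 3′ counting does not depend on transcript length. Those of Klrb1c, Klrc1 and the Klra genes carry the uncertainty of sequence given above. Klrk1 was at 362 CPM (268 to 479, 49 UMIs) in vehicle and 373 CPM (335 to 413, 358 UMIs) in TAK-931 NK cells. Ncr1, the receptor that marks the NK lineage, was at 318 CPM (230 to 428, 43 UMIs) in vehicle and 185 CPM (159 to 215, 178 UMIs) in TAK-931 cells, so the intervals of Ncr1 did not overlap. Klrb1c, which encodes NK1.1 in C57BL/6 mice, was at 104 CPM (56.6 to 174, 14 UMIs) and 56.2 CPM (42.2 to 73.3, 54 UMIs), with overlapping intervals. The NK1.1 antibody is known not to stain BALB/c cells, and the Klrb1c transcript was counted in both libraries.

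The activating Ly49 genes had few UMIs. Klra4 (Ly49D) had 2 UMIs in 1 vehicle NK cell (14.8 CPM, 1.79 to 53.4) and 24 UMIs in 11 TAK-931 NK cells (25.0 CPM, 16 to 37.2). Klra8 (Ly49H) had 0 UMIs in vehicle, where 3 counts would be 22.2 CPM, and 1 UMI in TAK-931 NK cells. In all kept barcodes Klra8 had 0 and 4 UMIs and Klra4 3 and 48, beside 23 and 480 of Klra7. Whether the Klra4 and Klra8 UMIs came from BALB/c relatives of these genes was not tested.

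The partner chains and inhibitory receptors covered a wide range of levels. Klrd1, the CD94 chain that pairs with every NKG2 receptor except NKG2D, was the highest of the 9 in NK cells of both libraries, at 651 CPM (522 to 802, 88 UMIs) and 515 CPM (471 to 563, 495 UMIs). Klre1, a chain that pairs with Klri1 or Klri2, was at 251 CPM (174 to 351, 34 UMIs) and 172 CPM (147 to 200, 165 UMIs). The inhibitory Klrc1 (NKG2A) was at 96.2 CPM (51.2 to 164, 13 UMIs) and 95.7 CPM (77.2 to 117, 92 UMIs). The inhibitory Ly49G gene Klra7 was at 126 CPM (73.2 to 201, 17 UMIs) and 182 CPM (156 to 211, 175 UMIs). None of these 4 genes had intervals apart between the libraries.

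In the TAK-931 NK cells the order of levels was Klrd1, Klrk1, Ncr1, Klra7, Klre1, Klrc1, Klrb1c, Klra4 and Klra8. Ncr1, Klra7 and Klre1 had overlapping intervals, and every other neighbouring pair had intervals apart. With 27 vehicle cells, only Klrd1 and Klrk1 were neighbours with intervals apart. Klra7 UMIs lay in 42 of 145 TAK-931 NK cells at 4.17 UMIs per cell that had any, and up to 22 in a cell. Klrd1 lay in 128 cells at 3.87 UMIs per cell with any, also up to 22, and Ncr1 in 78 cells at 2.28 UMIs per cell with any.

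**Figure D1:**
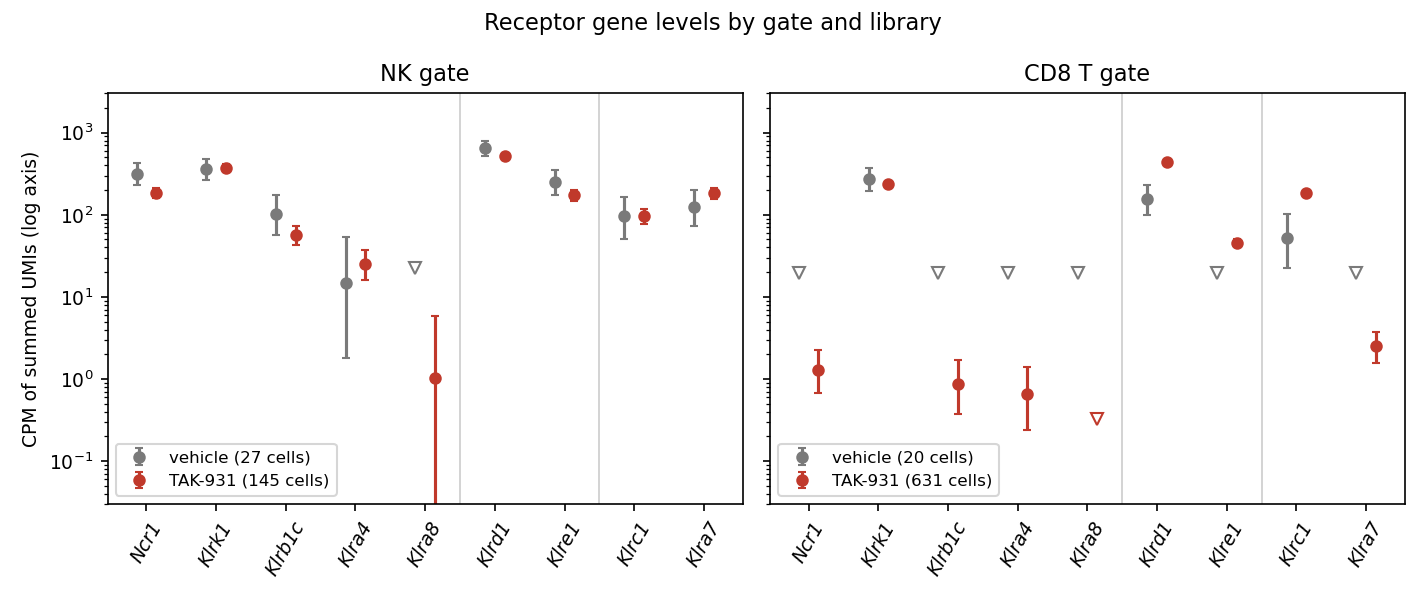
CPM of summed UMIs (log axis) of the 9 receptor genes in the NK gate (left) and CD8 T gate (right) of the vehicle (grey) and TAK-931 (red) library, with exact Poisson 95% intervals; open triangles mark sums of 0, drawn at the level of 3 counts, and vertical lines part activating, partner and inhibitory genes. Klrd1 is highest in NK cells (651 and 515 CPM), and Ncr1, Klrb1c, Klra4 and Klra7 fall to between 0.649 and 2.49 CPM in TAK-931 CD8 T cells.

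In NK cells no receptor gene was called 2-fold apart between the libraries with the gate as set here. A gene was called at 2-fold where both sums together held at least 10 UMIs, with a sum of 0 set to 3 counts. Of 7413 genes 14.8% were called higher and 5.92% lower in TAK-931 NK cells, beside 0 of the 8 receptor genes that could be compared (Klra8 had too few UMIs). The log2 ratio of TAK-931 over vehicle was -0.78 (-1.27 to -0.26) for Ncr1, -0.88 (-1.75 to 0.08) for Klrb1c, -0.55 (-1.09 to 0.03) for Klre1 and -0.34 (-0.67 to 0.01) for Klrd1. It was 0.040 (-0.39 to 0.50) for Klrk1, -0.01 (-0.85 to 0.96) for Klrc1, 0.53 (-0.19 to 1.35) for Klra7 and 0.76 (-1.25 to 3.88) for Klra4. Ncr1 alone had an interval without 0, and it turned to 0.19 when at least 2 of the 8 markers were required. Under other settings 1 or 2 genes were called higher (6 of 14 settings) and 1 lower (3 of 14), and Klra7 ranged from -0.20 without deep cells to 3.03 with over 2000 genes per cell, where 5 vehicle cells remained.

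The 9 genes summed to 1923 CPM in vehicle and 1605 CPM in TAK-931 NK cells, a log2 ratio of -0.26 (-0.45 to -0.07). Over the 353 genes that reached 50 UMIs in both libraries the median log2 ratio was -0.30, and over all 6706 genes with counts in both it was 0.13. Relative to the first of these the sum stood at 0.040. The sum also rested on a few deep cells. In the TAK-931 library 3 NK cells with exactly 3 of the 8 markers held 20.1% of the gate's UMIs but 6 of its 1542 receptor UMIs. When at least 4 markers were required the log2 ratio was 0.057 for the sum and -0.46 for Ncr1, and without cells that had a Lyz2 UMI, an alternative chosen after seeing the data, it was 0.10 for the sum.

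The shares of NK cells with a UMI, taken after each cell was thinned to 1500 UMIs, did not separate the libraries for any of the 9 genes. Klrd1 was found in 73.1% (19 of 26, 52.2 to 88.4%) of vehicle and 54.5% (79 of 145, 46.0 to 62.8%) of TAK-931 NK cells. Klrk1 was found in 34.6% (17.2 to 55.7%) and 46.9% (38.6 to 55.4%), and Ncr1 in 30.8% (14.3 to 51.8%) and 22.8% (16.2 to 30.5%). The other 6 genes ranged from 0 to 30.8% in vehicle and from 0 to 25.5% in TAK-931 cells. At a limit of 3 counts, 0 of 26 cells allows a share of up to 11.5% and 0 of 145 up to 2.07%, and the exact upper limits are 13.2% and 2.51%. At full depth Ncr1 was found in 70.4% of vehicle and 53.8% of TAK-931 NK cells and Klrk1 in 77.8% and 79.3%.

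Activating genes held 108 of the 260 UMIs of all 9 genes in vehicle and 615 of 1542 in TAK-931 NK cells, the rest being those of partner chains and inhibitory genes. Of the UMIs of the 5 activating and 2 inhibitory genes, 108 of 138 were activating in vehicle (78.3%, 70.4 to 84.8%) and 615 of 882 in TAK-931 NK cells (69.7%, 66.6 to 72.7%), with overlapping intervals. The share depends on the role given to Klrd1: counted as inhibitory, it brought the share to 47.8% and 44.7%. It also depends on the genes counted. Both inhibitory genes share 3′ sequence with relatives (68.7% of words for Klrc1, 46.6% for Klra7), and Klrk1 and Ncr1 share none. Klra3, a further Ly49 gene with 30 and 316 UMIs in NK cells, was in neither group. In CD8 T cells the activating share, nearly all of it Klrk1, was 84.0% (42 of 50, 70.9 to 92.8%) in vehicle and 55.9% (2186 of 3910, 54.3 to 57.5%) in TAK-931 cells, with intervals apart. These intervals take UMIs as independent. The 42 vehicle Klrk1 UMIs lay in 12 of 20 cells and the 8 Klrc1 UMIs in 4. The CD8 T share was not repeated without deep cells. Per cell at 1500 UMIs, 31 of 145 TAK-931 NK cells had both kinds, 63 activating only, 16 inhibitory only and 35 neither. Of the 26 vehicle NK cells 7, 8, 3 and 8 fell in these classes. Of 630 TAK-931 CD8 T cells 49 had both kinds, 122 activating only, 94 inhibitory only and 365 neither. Among the 20 vehicle CD8 T cells 1 had both kinds, 4 activating only, 0 inhibitory only and 15 neither.

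CD8 T cells held the NKG2 genes and Klrd1 but few or no UMIs of Ncr1, Klrb1c and the Ly49 genes. Klrk1 was at 271 CPM (195 to 366, 42 UMIs) in vehicle and 234 CPM (224 to 244, 2160 UMIs) in TAK-931 CD8 T cells. Klrd1 was at 155 CPM (99.2 to 230, 24 UMIs) and 438 CPM (425 to 452, 4046 UMIs), and Klrc1 at 51.6 CPM (22.3 to 102, 8 UMIs) and 184 CPM (175 to 193, 1701 UMIs). Klre1 had 0 UMIs in vehicle, where 3 counts would be 19.4 CPM, and stood at 45.7 CPM (41.4 to 50.3, 422 UMIs) with TAK-931. Thus Klrd1, Klrc1 and Klre1 were higher in the TAK-931 library with all cells of the gate kept, and Klrk1 was not. Without its deep cells no gene was called 2-fold higher. In TAK-931 CD8 T cells Klra7 had 23 UMIs in 7 cells, Ncr1 12 in 3 cells, Klrb1c 8 in 8 cells and Klra4 6 in 2 cells, and all 4, like Klra8, had 0 UMIs among the 20 vehicle cells.

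The log2 ratio of TAK-931 over vehicle in CD8 T cells was 1.5 (0.92 to 2.14) for Klrd1, 1.83 (0.85 to 3.05) for Klrc1 and -0.21 (-0.65 to 0.26) for Klrk1, and Klre1 was at least 2.36-fold higher against the floor of 3 counts, with an exact lower limit of 0.93 on the log2 scale, under 2-fold. Hence 3 of 6 comparable receptor genes were called higher and 0 lower, beside 8.12% higher and 8.57% lower of 11182 genes. With a sum of 0 left at 0, 5 of 6 were higher, Ncr1 and Klra7 being added, beside 35.3% of all genes. The 9 genes summed to 477 CPM and 907 CPM, a log2 ratio of 0.93 (0.60 to 1.28). These calls moved with a few deep cells: 5 of the 20 vehicle CD8 T cells held 55.7% of the gate's UMIs but 15 of its 74 receptor UMIs. Without cells over 2 times the gate's median UMIs (5 vehicle and 128 TAK-931 cells) the log2 ratio of the sum was 0.088 and 0 genes were called. At 1500 UMIs per cell Klrd1 was found in 20% (4 of 20, 5.73 to 43.7%) of vehicle and 39.0% (246 of 630, 35.2 to 43.0%) of TAK-931 CD8 T cells, and Klrc1 in 5.00% (0.127 to 24.9%) and 22.5% (19.3 to 26.0%), with overlapping intervals. The adaptor Tyrobp moved alongside, from 0 to 66.6 CPM, as did Lyz2, from 6.45 CPM (1 UMI) to 103 CPM, and their part was not tested. Without cells that had a Lyz2 UMI the log2 ratio of the sum was 0.90.

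Within the TAK-931 library, NK cells were set apart from CD8 T cells by 5 of the genes. Ncr1 was 143-fold higher in NK cells (log2 ratio 7.16, 6.32 to 8.14), Klra7 73.2-fold (6.19, 5.56 to 6.89), Klrb1c 64.9-fold (6.02, 4.94 to 7.30) and Klra4 38.5-fold (5.27, 3.94 to 6.85). Klre1 was 3.76-fold higher (1.91, 1.64 to 2.17). Together 5 of 8 comparable receptor genes were called higher in NK cells and 0 lower, beside 13.3% higher and 10.5% lower of 11490 genes. The other 3 differed by less than 2-fold. Klrk1 (log2 ratio 0.67, 0.51 to 0.83) and Klrd1 (0.23, 0.10 to 0.37) were higher in NK cells and Klrc1 lower (-0.94, -1.26 to -0.64). Klrd1 changed sign with the cells kept, being -0.51 when over 2000 genes were required.

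In the vehicle library, where Klra4 had 2 UMIs in NK cells, the other 4 of these genes were also higher there. Ncr1 was at least 16.4-fold, Klre1 at least 13.0-fold, Klra7 at least 6.5-fold and Klrb1c at least 5.35-fold higher in NK than in CD8 T cells, against a floor of 3 counts per sum. The exact lower limits of their log2 ratios were 3.68, 3.32, 2.24 and 1.93. Klrd1 had a log2 ratio of 2.07 (1.41 to 2.79), Klrk1 of 0.42 (-0.20 to 1.05) and Klrc1 of 0.90 (-0.48 to 2.37). The few TAK-931 CD8 T cells with Ncr1, Klrb1c, Klra4 or Klra7 were deep and often held adaptors. In the TAK-931 gate 15 of 631 cells had a UMI of these genes, with a median of 16094 UMIs and Tyrobp in 53.3%, beside 10497 UMIs and 24.2% in the other 616. The 4 cells with at least 2 of these genes had a median of 38745 UMIs, and all 4 had Tyrobp. Both sets of cells were picked, and Tyrobp was counted, at full depth, where a deeper cell shows more genes. Doublets were not removed, and their part was not tested.

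NK cells usually showed several of the genes at 1500 UMIs. At least 2 were found in 69.2% (48.2 to 85.7%) of vehicle and 66.9% (58.6 to 74.5%) of TAK-931 NK cells. The share was 10.0% (1.23 to 31.7%) and 25.9% (22.5 to 29.5%) in CD8 T cells. It was 0 of 255 and 0.0965% of 2073 monocyte/macrophage cells and 0 of 2937 and 0 of 85 cells of the J558 gate. The monocyte/macrophage gate left out barcodes with at least 3 NK markers or with CD3 and Trac UMIs above a limit. Its low share was thus set in part by the gate, and 35 of 86 TAK-931 J558 cells had a CD3 UMI.

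**Figure D2:**
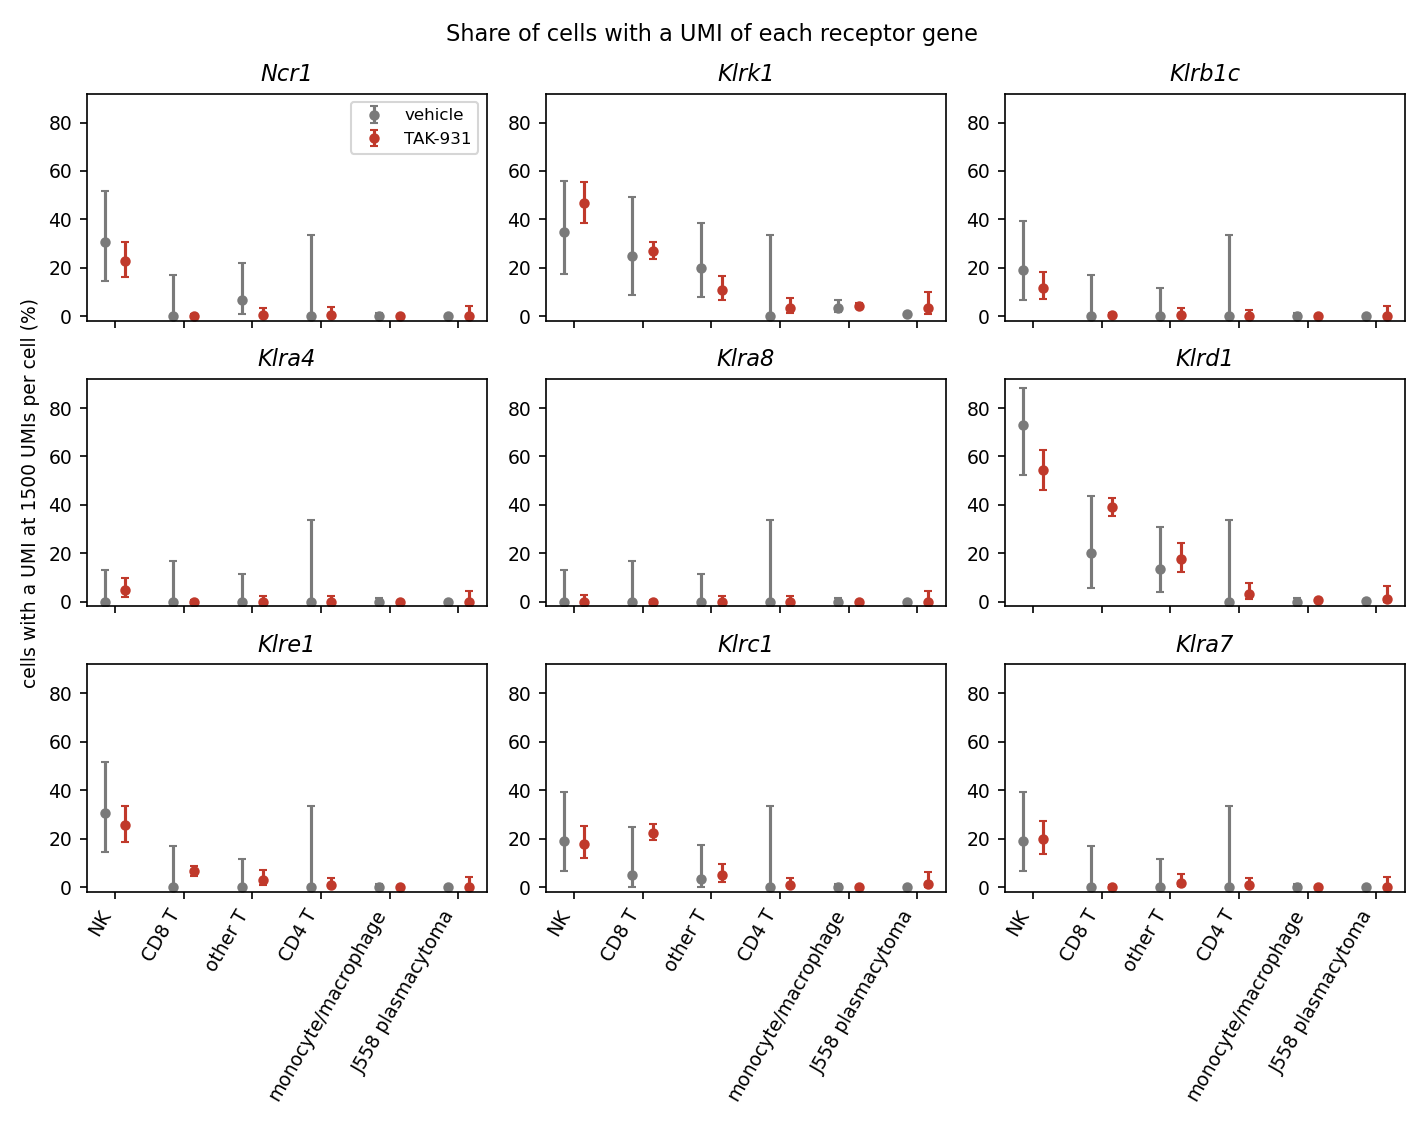
Percentage of cells with a UMI of each receptor gene after thinning to 1500 UMIs per cell, by gate, in the vehicle (grey) and TAK-931 (red) library, with exact 95% intervals. Ncr1, Klrb1c and Klra7 stand above 0 mainly in NK cells (22.8%, 11.7% and 20% with TAK-931), whereas Klrk1, Klrd1 and Klrc1 extend to CD8 T cells.

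Klrk1 differed from the other 8 genes by its low but wide detection outside lymphocytes. In vehicle J558 cells it had 1471 UMIs, a level of 11.8 CPM (11.2 to 12.5), and these were 77.6% of the library's Klrk1 UMIs. At full depth (median 41658 UMIs) 33.6% of J558 cells had a Klrk1 UMI, but at 1500 UMIs only 1.02% (30 of 2937, 0.690 to 1.46%) had. Monocyte/macrophage cells were at 21.9 CPM in vehicle and 27.3 CPM in TAK-931, with Klrk1 in 3.53% and 4.29% of thinned cells. Of Klrk1 and Klrd1 UMIs together, Klrk1 made up 35.8% in vehicle and 42.0% in TAK-931 NK cells, but 97.4% and 87.9% in monocyte/macrophage cells and 96.8% in vehicle J558 cells. With TAK-931 the Klrk1 share was 59.9% in the J558 gate. It was 39.4% in the TAK-931 endothelial gate, near the NK value, and 91.6% in the vehicle endothelial gate. The vehicle endothelial gate was as deep as the vehicle J558 gate, at a median of 41298 UMIs, beside 9735 in the TAK-931 endothelial gate. Slamf7 was at 95.1 CPM in the vehicle endothelial, 115 CPM in the vehicle J558 and 20 CPM in the TAK-931 endothelial gate. Ptpn6 was at 103, 141 and 30.9 CPM in these gates. The part of J558 cells in the 91.6% was not tested. In the 86 cells of the TAK-931 J558 gate, 35 cells with a CD3 UMI held 88 of 95 Klrd1, 121 of 142 Klrk1 and all 49 Klrc1 UMIs.

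Over whole libraries the genes summed to 16.5 CPM in vehicle and 224 CPM in TAK-931, a log2 ratio of 3.76 (3.70 to 3.82), and the ratio was 2.46 to 7.10 for each of the 8 with UMIs in both libraries. The libraries differed greatly in their cells: NK and CD8 T cells were 0.649% and 0.480% of kept vehicle barcodes and 3.13% and 13.6% with TAK-931. At this level more cells and more transcript per cell cannot be told apart. In the TAK-931 library the CD8 T gate held 69.1% of Klrc1, 60.9% of Klrd1, 40.9% of Klre1 and 40.6% of Klrk1 UMIs. The NK gate held 46.5% of Ncr1, 45.0% of Klrb1c and 36.5% of Klra7 UMIs. Barcodes in no gate held 34.5% of Ncr1 and 38.8% of Klra7 UMIs.

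**Figure D3:**
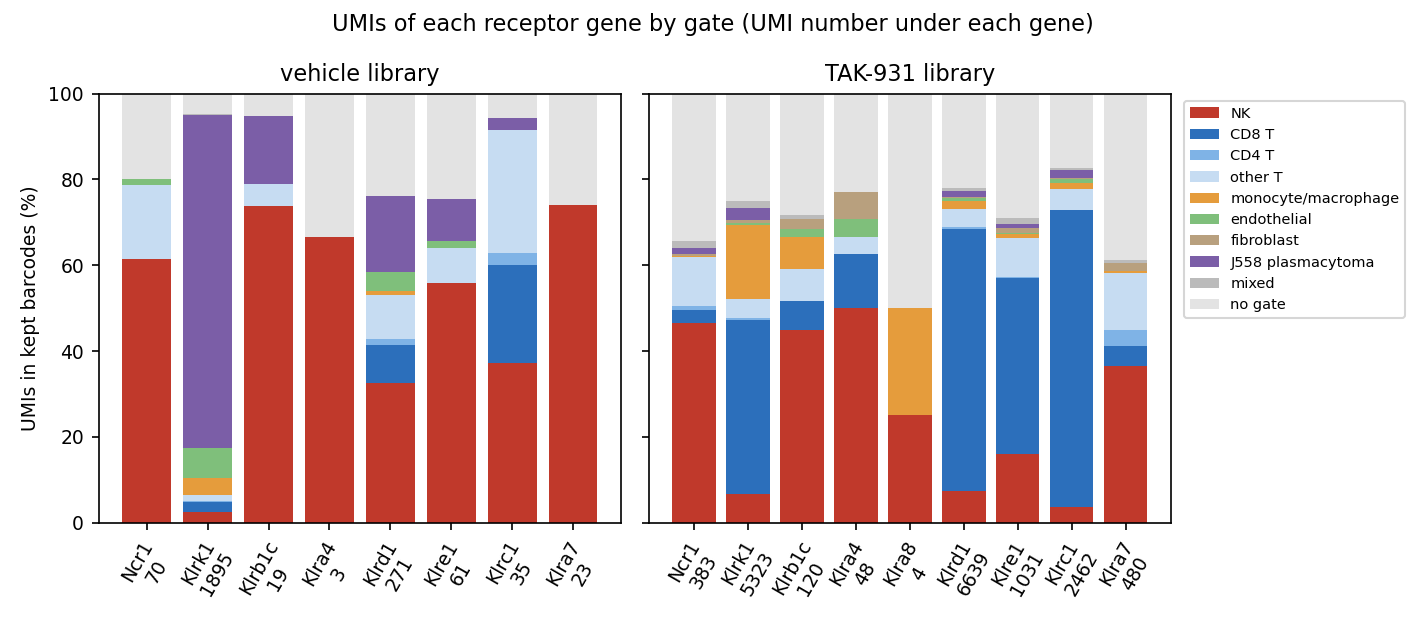
Stacked bars of the percentage of each gene's UMIs in kept barcodes that fell in each gate, in the vehicle (left) and TAK-931 (right) library, with the number of UMIs under each gene; Klra8 had none in vehicle. The J558 gate holds 77.6% of Klrk1 UMIs in vehicle, and the CD8 T gate holds 69.1% of Klrc1 and 60.9% of Klrd1 UMIs with TAK-931.

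The genes were found together in NK cells about as often as their separate shares would give. Among the 145 TAK-931 NK cells at 1500 UMIs, 17 of the 28 pairs without Klra8 were in more cells than the product of the shares and 11 in fewer. Ncr1 with Klrd1 was in 23 cells against a product of 18, and Klrk1 with Klrd1 in 42 against 37.0, and no other pair lay as far above. The inhibitory pair Klrc1 and Klra7 was in 8 cells against 5.20. Klrc1 with its partner Klrd1 was in 15 against 14.2, and Klrk1 with Klrc1 in 10 against 12.2. In the 26 vehicle NK cells Klrk1 with Klrd1 was in 9 against 6.58. In 630 TAK-931 CD8 T cells 10 pairs lay above the product and 11 below, the latter by at most 0.45 cells. There Klrk1 with Klrd1 was in 81 against 66.4 and Klrk1 with Klrc1 in 49 against 38.3. Klrd1 with Klrc1 was in 66 against 55.4 and Klrd1 with Klre1 in 26 against 16. These are descriptions of cells of 1 library.

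**Figure D4:**
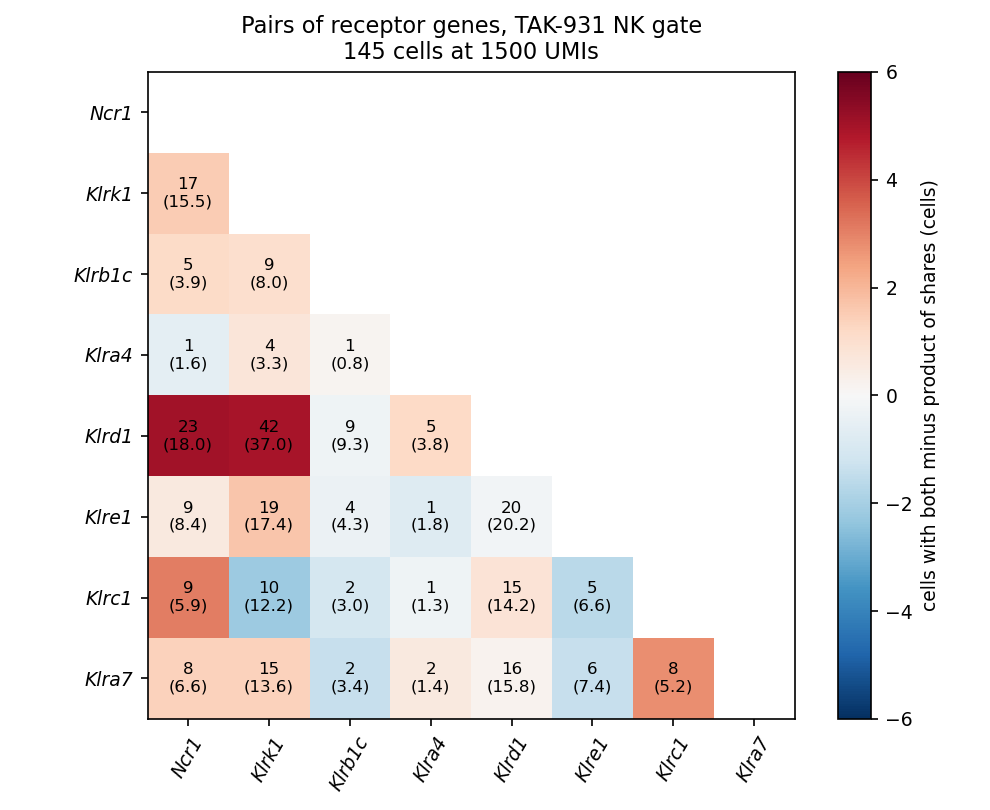
Number of TAK-931 NK cells (145 cells at 1500 UMIs) with a UMI of both genes of each pair, with the product of the separate shares in brackets; color gives their difference in cells. Most pairs lie close to the product, and Ncr1 with Klrd1 (23 against 18) and Klrk1 with Klrd1 (42 against 37.0) lie farthest above it.

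Among TAK-931 CD8 T cells at 1500 UMIs, Klrd1 was found more often in cells with a UMI of Gzmb, the granzyme B gene. It was in 47.2% (127 of 269, 41.1 to 53.4%) of cells with Gzmb and 33.0% (119 of 361, 28.1 to 38.1%) of cells without, with intervals apart. Klre1 was in 9.29% (6.10 to 13.4%) and 4.43% (2.55 to 7.10%), with overlapping intervals, and at 1000 UMIs the order turned, at 3.11% and 3.45%. Klrk1 was in 29.0% and 25.5%, and Klrc1 in 22.3% and 22.7%. Split by Pdcd1, which encodes PD-1, Klrd1 was in 34.2% of 184 cells with and 41.0% of 446 cells without it and Klrc1 in 25.0% and 21.5%, all with overlapping intervals.

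Other receptor genes of the NK gene complex and NK cells were read from a list of 26, of which 25 were among the features. In NK cells 4 of 18 comparable genes were called higher and 4 lower in the TAK-931 library, beside 14.8% and 5.92% of all genes. In CD8 T cells 4 of 16 were higher and 0 lower, beside 8.12% and 8.57%. Klrg1, an inhibitory receptor of mature NK cells, was at 14.8 CPM (2 UMIs) in vehicle and 112 CPM in TAK-931 NK cells (log2 ratio 2.93, 1.04 to 5.99). Klra1 (Ly49A) was at 81.4 and 14.6 CPM (-2.48, -3.73 to -1.20), and Cd226, which encodes the activating receptor DNAM-1, at 88.8 and 39.5 CPM (-1.17, -2.13 to -0.09). Klrc2, the relative that shares sequence with Klrc1, was at 83.9 and 265 CPM in CD8 T cells (1.66, 0.88 to 2.57), beside the 1.83 of Klrc1. Between NK and CD8 T cells of the TAK-931 library 14 of 22 were called higher and 4 lower in NK cells, beside 13.3% and 10.5% of all genes, the higher ones including Klra3 at 329 and 6.82 CPM, Klrb1a at 48.9 and 0.325 CPM and Klri2, a partner of Klre1, at 120 and 15.3 CPM. Klrc2, at 245 and 265 CPM, was not among them.

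Adaptors and kinases of the receptors were read from a list of 11, of which 2 were called higher and 2 lower in TAK-931 NK cells, beside 14.8% and 5.92% of all genes. Hcst, the DAP10 adaptor of Klrk1, was at 636 CPM in vehicle and 256 CPM in TAK-931 NK cells, a log2 ratio of -1.31 (-1.67 to -0.94), while Klrk1 itself stood at 0.040. Tyrobp, whose UMIs helped to gate the NK cells, was at 1857 and 1340 CPM. Cd247, an adaptor of Ncr1, was at 29.6 CPM (4 UMIs) and 81.2 CPM (1.46, 0.04 to 3.37). Against CD8 T cells of the TAK-931 library 4 of 11 were called higher and 3 lower in NK cells, beside 13.3% and 10.5% of all genes, but the NK gate required Tyrobp or Fcer1g, which are 2 of the 4 higher. Outside the gate's genes, Syk was at 40.6 and 6.39 CPM and Zap70 at 25.0 and 79.8 CPM. Hcst was at 256 and 397 CPM.

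Ligands of the receptors were measured in the tumor cells as well. The NKG2D ligands were named after their values were seen. Raet1d, Raet1e and H60c had at most 3 UMIs each in the vehicle J558 gate and 0 in the TAK-931 J558 gate. H60b had 2 and 8 UMIs (0.0161 and 1.84 CPM), and Ulbp1 was at 9.90 CPM (9.35 to 10.5) and 7.36 CPM (5.03 to 10.4). H2-T23, which encodes the ligand of NKG2A with CD94, was at 79.0 CPM (77.4 to 80.6) and 141 CPM (130 to 152) in the J558 gate. There the macrophage gene Lyz2 had a UMI in 7.27% of the vehicle and 68.6% of the TAK-931 cells, and 35 of the 86 TAK-931 cells had a CD3 UMI, whose part was not tested, while TAK-931 CD8 T cells held H2-T23 at 376 CPM. In NK cells themselves 0 of 7 comparable ligand genes were called higher and 1 lower with TAK-931, beside 14.8% and 5.92% of all genes, H60b at 66.6 and 21.9 CPM. Of 14 genes of NK maturation and residence, 13 were comparable in NK cells. Of these 1 was called higher and 1 lower, beside the same 14.8% and 5.92% of all genes. The higher was Itgam (CD11b) at 14.8 CPM (2 UMIs) and 76.0 CPM (log2 ratio 2.36, 0.46 to 5.43). The lower was the granzyme gene Gzmc at 370 and 32.3 CPM. Itgam is also a myeloid gene, and the 7 myeloid markers went from 29.6 to 110 CPM in this gate, whose part was not tested. In CD8 T cells 3 of 13 were higher and 0 lower, beside 8.12% and 8.57% of all genes. The 3 included Gzmc, with 0 UMIs in vehicle and 72.4 CPM with TAK-931, and Ifng at 25.8 CPM (4 UMIs) and 94.2 CPM.

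The genes whose levels most resembled the mean profile of the 9 receptor genes were named by Pearson's r over 15 sums of gates and libraries, on log2(CPM + 1), among 14750 genes. The closest were Samd3 (0.970), Mlxip (0.961), Klri2 (0.959), Il18rap (0.956) and Qrfp (0.952), followed by Klrb1f, Padi2, Serpinb9b, Sytl3 and Gm43813, at 0.941 to 0.916. Sytl3 was at 546 CPM in NK, 92.9 CPM in CD8 T and 0.717 CPM in monocyte/macrophage cells of the TAK-931 library, and Samd3 at 42.7, 8.01 and 0.0897 CPM. Among the receptor genes themselves Klre1 followed the mean most closely (0.959) and Klra8 least (0.534). The sums share libraries, so the values are a description.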

How the data were processed

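UMI counts per gene and barcode were deposited as made by the authors with Cell Ranger 6.0.0 on mm10, per the submitters' processing notes, with no normalization; the annotation version is not given in the sources used here. Barcodes were kept above 500 genes and below 15% mitochondrial UMIs, gated by markers, summed per gate and library and scaled to CPM. The study's own limit of over 2000 genes, an alternative here, left 5 vehicle NK and 7 CD8 T cells. Ratios carry exact conditional binomial, levels exact Poisson and shares exact Clopper-Pearson 95% intervals. Free RNA was subtracted only in an alternative, and doublets were not removed. The genes and lists were chosen with earlier results of these data known. Besides them, a list's 4 highest genes and those 2-fold apart with intervals without 0 could be named, and the 10 genes highest by r. Coordinates and coding sequences are those of GENCODE M21 (GRCm38). Steps were tested on simulated data. Python 3.11.15, numpy 2.4.6, scipy 1.17.1, pandas 2.3.3 and matplotlib 3.10.9 were used. Alternatives changed the gene and mitochondrial limits, gates, deep cells, scaling, thinning and roles. A further planned split of the CD8 T cells is not reported here.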

Additional observations from a re-analysis of the deposited data

Results flagged for a closer look

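Barcodes left out by the filters on genes and mitochondrial UMIs also held receptor UMIs. In the TAK-931 library the 1923 left-out barcodes held 385 UMIs of the 9 genes, 101.98 CPM (92 to 113), and 60.7 CPM (53.1 to 69.0) without Klrk1. The 402 left-out vehicle barcodes held 9 UMIs, 9.75 CPM (4.46 to 18.5), and 0 without Klrk1. Among the TAK-931 barcodes, those with over 500 genes but too many mitochondrial UMIs held 325 UMIs, including 104 of Klrd1 and 14 of Ncr1.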

How the results depend on the processing

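No paired analysis was possible because each treatment had 1 library, and for the same reason no library could be left out. Of the alternative values of the main results, 136 stayed the same, 47 moved and 4 reversed. Levels, ratios and shares were judged by the interval of the main value. Numbers of genes called have no interval and were judged by closeness to the main number. Alternatives without Lyz2-positive cells, those on UMIs by gate and those on the Gzmb split were chosen after seeing the data. In NK cells the log2 ratio of the summed genes (-0.26) was -0.60 with over 2000 genes per cell, -0.045 without cells over 2 times the median UMIs, 0.70 with at least 2 of 8 markers, 0.057 with at least 4, 0.040 with median-ratio scaling and 0.10 without Lyz2-positive cells. With at least 2 markers 5 added vehicle cells held 64.7% of the gate's UMIs and 4 receptor UMIs, and Ncr1 stood at 0.19. The number of receptor genes 2-fold higher (0) was 2 with at least 2 markers and 1 with over 2000 genes, at least 4 markers, mean CPM per cell, median-ratio scaling or no Lyz2-positive cells, and the number lower (0) was 1 with over 2000 genes, without deep cells or with mean CPM. In CD8 T cells the summed ratio (0.93) was 0.088 and the number higher (3) was 0 without deep cells. NK over CD8 T cells, the summed ratio (0.82) was 0.25 with over 2000 genes, 1.18 without deep cells, 0.31 with at least 2 and 1.14 with at least 4 markers, 1.20 with mean CPM, 0.66 with median-ratio scaling and 1.16 without Lyz2-positive cells. Klrd1 was -0.51 with over 2000 genes and -0.29 with at least 2 markers, and 1 gene was lower (0 before) with over 2000 genes, at least 2 markers, median-ratio scaling or free RNA subtracted. Ncr1 was found in 80.0% of vehicle NK cells with over 2000 genes (5 cells), 68.8% at 3000 UMIs and 70.4% unthinned, and in 46.0% and 53.8% of TAK-931 NK cells at 3000 UMIs and unthinned. The activating share was 88.2% in vehicle with over 2000 genes, 73.4% in TAK-931 without deep cells and 72.9% without Lyz2-positive cells, 47.8% and 44.7% with Klrd1 as inhibitory and 89.1% and 86.5% without Ly49 genes. With over 2000 genes the NK gate held 4.67% of vehicle and 4.16% of TAK-931 receptor UMIs and the CD8 T gate 2.36% and 54.0%, and with no mitochondrial limit the TAK-931 NK gate held 9.81%. Klrd1 in CD8 T cells with and without Gzmb was at 39.6% and 25.6% at 1000 UMIs and 70.4% and 50.2% at 3000, and Klre1 at 3.11% and 3.45% at 1000 UMIs and 15.6% and 6.71% at 3000. The alternatives were computed on different cells or scales, and the causes were not tested further. The vehicle values rest on 27 NK and 20 CD8 T cells, which limits their precision.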

Other observations

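Of 3881 receptor UMIs in TAK-931 barcodes of no gate, 56.7% lay in 182 barcodes with T cell markers and at least 3 myeloid markers, 21.9% in 41 barcodes with NK markers and a CD3, Trac or Cd8b1 UMI, and 7.09% in 31 barcodes with NK markers and at least 3 myeloid markers. The 41 barcodes held 254 Klrd1, 218 Klrk1, 105 Klra7 and 71 Ncr1 UMIs. In the vehicle library 8 such barcodes held 65 of 193 ungated receptor UMIs, among them 14 of Ncr1 and 14 of Klre1.

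In T cells with neither or both of CD4 and CD8 transcripts, Ncr1 was at 41.3 CPM (12 UMIs in 3 of 30 cells) in vehicle and 25.2 CPM (44 UMIs in 9 of 169 cells) in the TAK-931 library, beside 0 and 36 CPM (63 UMIs in 8 cells) for Klra7. Of these TAK-931 UMIs, 24 of Ncr1 lay in a single cell, as did 27 of Klra7.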
